A study of Mus musculus with 6 samples.

Results

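Genes switched on by the tumour suppressor p53 were followed in mouse gliomas that grew back after their driving oncogene was switched off. The set holds 10 well-known p53 target genes, namely Cdkn1a, Mdm2, Ccng1, Trp53inp1, Zmat3, Eda2r, Perp, Bax, Btg2 and Phlda3. Of these 10, 8 were measured by a probe set annotated to that gene alone, among 19938 genes measured in this way. The annotation gives Cdkn1a only a probe set shared with another gene, so no value is given for it, and Bax was not analysed here. The 8 measured genes had 1 such probe set each.

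Total RNA came from 3 relapsed gliomas, numbered 1, 2 and 3, and 3 control gliomas, numbered 1, 2 and 4, with 1 array per tumour. All 6 tumours arose from mouse glioma cells whose oncogene was a mutant form of EGFR, the receptor of epidermal growth factor, placed under the flank skin of Nu/Nu mice, which lack a thymus and mature T cells. Relapsed tumours are those that regrew after extinction of the mutant receptor. Some mice had 2 g/L of doxycycline in their drinking water, but the labels do not say which group they belonged to. Tumours were taken at 2 cm3. The labels state neither the p53 genotype of the glioma cells, nor how many lines or clones they came from, nor which promoter drove the receptor. Host and implanted cells are both murine, so the arrays read them together. In such bulk samples, fewer cells of a type and less RNA per cell cannot be told apart.

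p53 is a transcription factor that is kept scarce in resting cells by Mdm2, a ubiquitin ligase whose own gene p53 activates. DNA damage, oncogene signalling and other stresses release it, and it then binds paired half-sites in DNA and raises genes of cell cycle arrest, cell death, repair and metabolism. Many of these genes also answer to other factors, and in gliomas the pathway is often disabled through p53 itself, through Mdm2 or through loss of the Cdkn2a locus. Cdkn1a encodes p21, the inhibitor of cyclin-dependent kinases through which p53 stops the cell cycle, and Bax encodes a protein that permeabilises mitochondria in apoptosis.

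Promoter stretches are shown for 4 of the genes, chosen because they differ in the p53 motif they hold. Cdkn1a, which has no expression value here, is among them as a well-known p53 target. RefSeq promoter windows (GRCm38.p6, 250 bases before to 50 after a transcript start) were given for 7 of the 10 genes, and those of Trp53inp1, Zmat3 and Perp were not used here. The p53 consensus half-site, a run of purines, then C, A or T bases, G and a run of pyrimidines, was searched without mismatch. A full site was taken as 2 adjoining half-sites with at most 1 mismatch in all, and overlaps the half-sites it contains. The motif reads alike on both strands. Exact half-sites were found in the windows of 4 genes, namely Ccng1, Cdkn1a, Mdm2 and Bax, and in 8.36% of all 32851 windows. Full sites were found for 2 genes, Ccng1 and Cdkn1a, and in 0.0883% of all windows. Capitals mark the matches in the stretches printed here, each 5′ to 3′ on the strand of its gene and ending upstream of the transcript start.
Ccng1, chr11:40755422-40755521, minus strand: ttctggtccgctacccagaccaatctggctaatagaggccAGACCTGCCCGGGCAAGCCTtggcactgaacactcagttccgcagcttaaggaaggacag
Cdkn1a, chr17:29090888-29090978, plus strand: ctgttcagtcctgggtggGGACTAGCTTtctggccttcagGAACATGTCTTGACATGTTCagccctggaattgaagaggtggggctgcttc
Mdm2, chr10:117710885-117710984, minus strand: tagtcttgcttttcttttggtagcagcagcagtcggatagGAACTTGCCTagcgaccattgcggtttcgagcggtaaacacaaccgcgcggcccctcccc
Eda2r, chrX:97377210-97377309, minus strand: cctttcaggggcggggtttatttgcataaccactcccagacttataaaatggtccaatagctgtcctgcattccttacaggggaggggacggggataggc
The Cdkn1a stretch precedes the more upstream of 2 transcript starts in the table. Ccng1 holds a full site, Mdm2 a single half-site and Eda2r neither. The p53 sites for which Mdm2 is best known lie in its first intron, outside this window. A match is a description of the letters, and a window without one says nothing of p53 binding elsewhere.

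The p53 target genes differed in how they moved. Ccng1, Trp53inp1 and Eda2r rose in relapsed tumours, none fell, and Mdm2, Zmat3, Phlda3, Btg2 and Perp did not pass the test. Levels are log2 intensities, on which 1 unit is a doubling of signal, and calls required an adjusted p under 0.05 in limma, with Benjamini-Hochberg adjustment over all 19938 genes. The 3 called genes are 37.5% of the 8 measured, against 9.16% of all genes called in either direction and 3.69% called higher. The groups did not overlap for the same 3 genes, against 30.8% of all genes in either direction and 13% with relapsed tumours higher, so that the share of 37.5% is close to the background for either direction and above it for that direction. The median difference of the 8 genes was 0.46, against -0.02 over all genes, and 6 of the 8 had a higher mean in relapsed tumours, against 45.2% of all genes. Among those 6 are Btg2, at 0.0004, and Phlda3, at 0.14, whose signs changed under some alternatives. Without relapsed 2 or without relapsed 3 no gene of the 8 was called by limma, while 4 and 3 of them had an unadjusted p under 0.05. Without relapsed 1, control 1, control 2 or control 4, 1 of the 8 was called in each case.

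**Figure D1:**
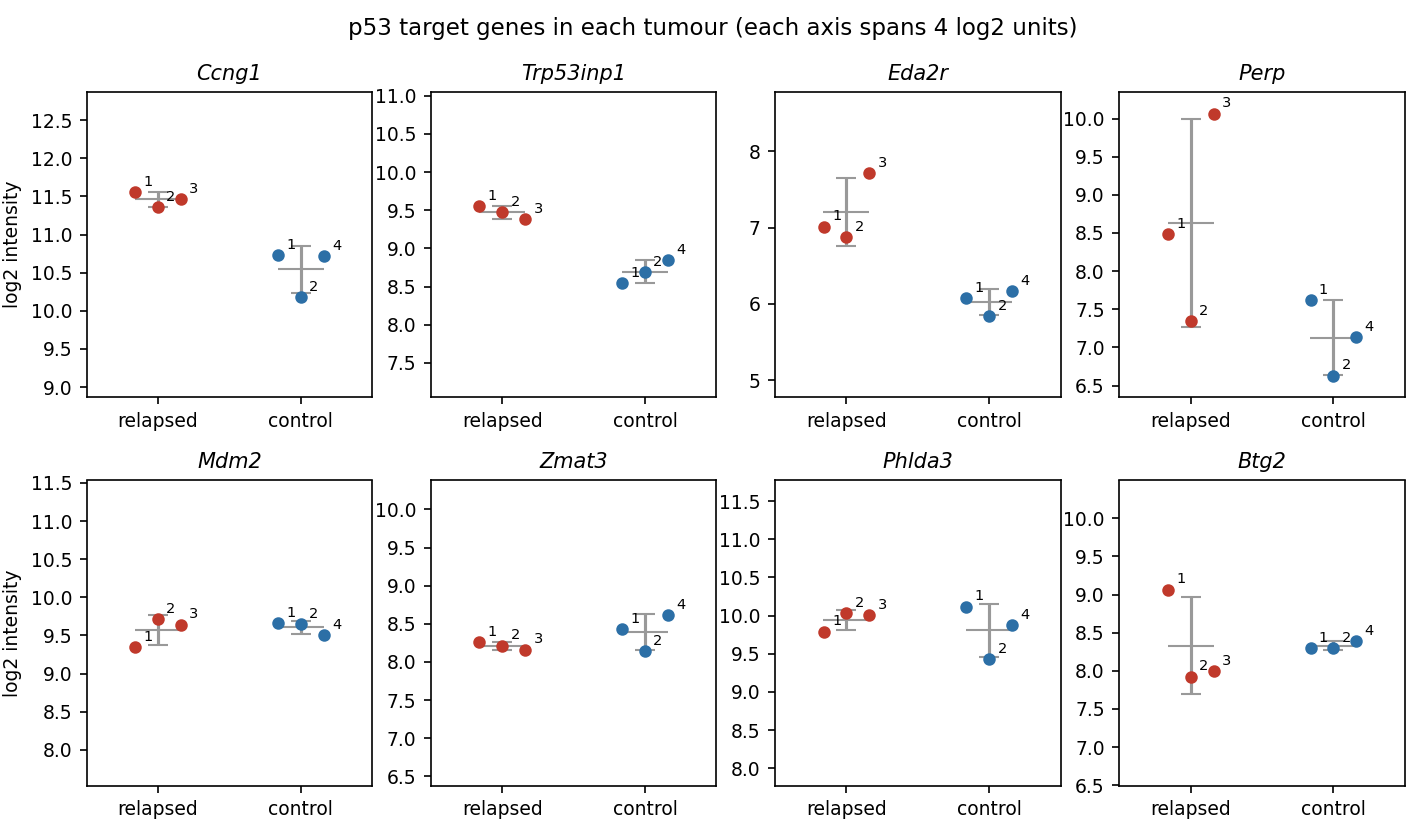
Log2 intensity of the 8 measured p53 target genes in each relapsed and control tumour, numbered as in the labels, with grey bars for the mean ± SD of 3 tumours; every vertical axis spans 4 log2 units. The relapsed tumours lie above all controls for Ccng1, Trp53inp1 and Eda2r, and a single relapsed tumour stands apart for Perp (10.06 in relapsed 3) and for Btg2 (9.06 in relapsed 1).

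Trp53inp1 encodes a stress-induced nuclear protein that acts with p53 and in autophagy. Its level was 9.55, 9.47 and 9.39 in relapsed 1, 2 and 3, against 8.55, 8.69 and 8.85 in control 1, 2 and 4. The groups were apart, and the tumours within each lay close together. The mean was 9.47 ± 0.08 in relapsed and 8.69 ± 0.15 in control tumours (SD, n = 3 each). The difference of 0.78 ± 0.10 (SE), or 1.71-fold, had the smallest limma adjusted p among the 8 genes, 0.0168. With 1 tumour left out, the difference stayed between 0.70 and 0.86, and the limma adjusted p ranged from 0.0449 to 0.0579. It missed the threshold without relapsed 2, relapsed 3 or control 2, at 0.0579, 0.0569 and 0.0512.

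Ccng1 encodes cyclin G1, which recruits a phosphatase to Mdm2 and is among the most regular p53 targets in mouse tissue. Relapsed 1, 2 and 3 had levels of 11.56, 11.36 and 11.47, against 10.73, 10.18 and 10.71 in control 1, 2 and 4. Control 2 was the lowest, and the groups did not overlap. Ccng1 averaged 11.46 ± 0.10 in relapsed and 10.54 ± 0.31 in control tumours (SD, n = 3 each), a difference of 0.92 ± 0.17 (SE) or 1.89-fold, with a limma adjusted p of 0.0345. The difference was 0.74 without control 2, where the call was kept (adjusted p = 0.0369 in limma). It was 0.87 to 1.01 without any of the other 5 tumours, where the limma adjusted p lay above the threshold and reached 0.109.

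Eda2r encodes a receptor of the tumour necrosis factor family that binds ectodysplasin A2. Its level was 7.01, 6.88 and 7.71 in relapsed 1, 2 and 3, against 6.07, 5.84 and 6.17 in control 1, 2 and 4. All 3 relapsed tumours were higher, with relapsed 3 well above the other relapsed tumours. Control levels lay near 5.65, the median over probe sets for which the annotation lists no gene, so the fold is less certain than those of Ccng1 and Trp53inp1. The mean was 7.20 ± 0.45 in relapsed and 6.03 ± 0.17 in control tumours (SD, n = 3 each), which makes the difference 1.17 ± 0.24 (SE), or 2.26-fold, with a limma adjusted p of 0.0437. The call was lost whichever tumour was left out, with limma adjusted p of 0.0569 to 0.125, and without relapsed 3 the difference was 0.92. It was also lost when limma was fitted to every probe set (adjusted p = 0.0602).

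**Figure D2:**
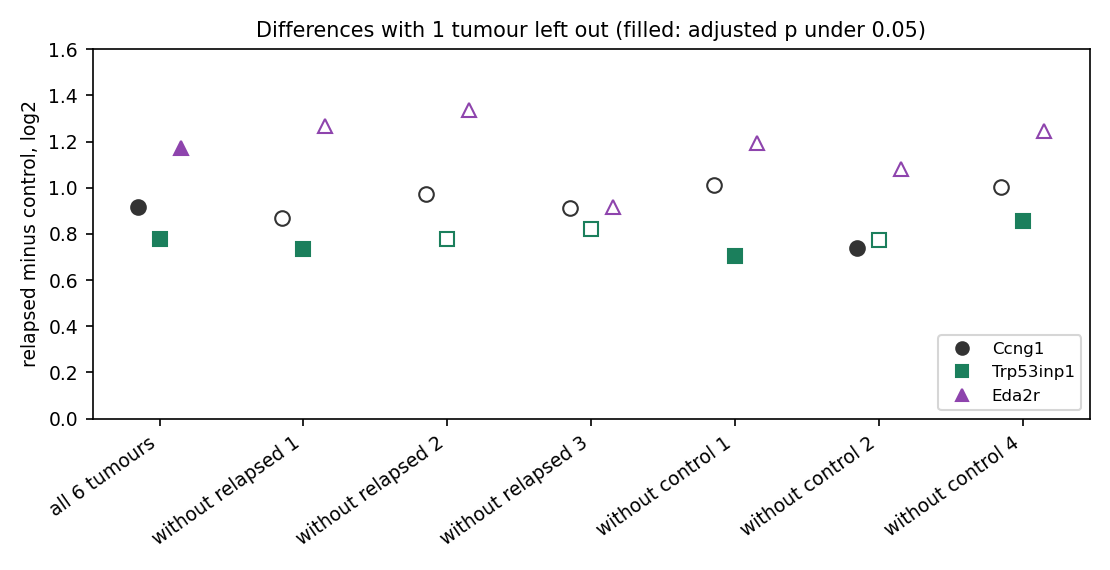
Difference of Ccng1, Trp53inp1 and Eda2r, relapsed minus control on the log2 scale, with all 6 tumours and with each left out in turn; filled symbols have a limma adjusted p under 0.05. All differences lie between 0.70 and 1.34, whereas the call is kept in 1 of 6 fits for Ccng1, 3 of 6 for Trp53inp1 and 0 of 6 for Eda2r.

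Several cell types of the tumours differed between the same groups. Their part in these rises, and in the falls of other p53 pathway genes given below, was not tested. Of 10 macrophage markers, 8 rose and none fell, and their summed signal, with the log2 undone, was 14791 to 20469 in relapsed and 5194 to 7430 in control tumours. Of 10 fibroblast markers, 8 rose, with a summed signal of 27047 to 37379 in relapsed and 9204 to 13745 in control tumours. Of 9 glioma progenitor markers, 5 fell, and the summed signal was 7356 to 8531 in relapsed and 17729 to 28434 in control tumours. Of these 9, Gfap alone had a higher mean in relapsed tumours, by 0.64, and Sox10 differed by -0.14, both without a call. Among 8 endothelial markers 1, Robo4, fell and none rose, with a summed signal of 2136 to 2639 in relapsed and 2578 to 3319 in control tumours. Over all genes, 3.69% were called higher and 5.47% lower. No macrophage, fibroblast, endothelial or progenitor marker had a mean below the median of unlisted probe sets.

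Mdm2, the gene of the feedback loop, did not pass the test. It stood at 9.34, 9.72 and 9.64 in relapsed 1, 2 and 3, against 9.66, 9.65 and 9.51 in control 1, 2 and 4. Its values overlapped within a narrow range. The difference was -0.04 with a 95% interval of -0.33 to 0.25 and a limma adjusted p of 0.872, and without relapsed 1 it was 0.08.

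Zmat3, whose zinc finger protein binds RNA and regulates splicing, and Phlda3, whose product competes with the kinase Akt for membrane lipids, also overlapped between groups. Zmat3 was 8.26, 8.21 and 8.16 in relapsed 1, 2 and 3, against 8.43, 8.15 and 8.61 in control 1, 2 and 4. Its difference of -0.18 had a 95% interval of -0.50 to 0.13 and a limma adjusted p of 0.424. It was -0.31 without control 2 and -0.08 without control 4. Relapsed tumours lay within 0.10 of each other for Zmat3, whereas the controls spanned 0.47. Phlda3 was 9.79, 10.03 and 10.001 in relapsed 1, 2 and 3, against 10.12, 9.42 and 9.87 in control 1, 2 and 4. Control 2 was its lowest sample, and the difference of 0.14 (95% interval -0.34 to 0.61, limma adjusted p of 0.706) was -0.05 without that tumour.

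Btg2 encodes an antiproliferative protein that speeds the removal of poly(A) tails. Its level was 9.06, 7.93 and 7.999 in relapsed 1, 2 and 3, against 8.29, 8.30 and 8.39 in control 1, 2 and 4. Relapsed 1 lay above every control and relapsed 2 and 3 below every control, so the mean difference of 0.0004 describes no single relapsed tumour. Its 95% interval ran from -0.79 to 0.79, with a limma adjusted p of 1. Without relapsed 1 the difference was -0.37, with a limma adjusted p of 0.0536.

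Perp encodes a membrane protein of desmosomes, the junctions that hold epidermal cells together, and promotes apoptosis. Its level was 8.49, 7.34 and 10.06 in relapsed 1, 2 and 3, against 7.62, 6.63 and 7.14 in control 1, 2 and 4. It had the largest mean difference of the 8 genes and the widest spread, 2.72 among relapsed tumours against 0.99 among controls. The difference of 1.501 had a 95% interval of -0.29 to 3.29 and a limma adjusted p of 0.257, and without relapsed 3 it was 0.78.

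**Figure D3:**
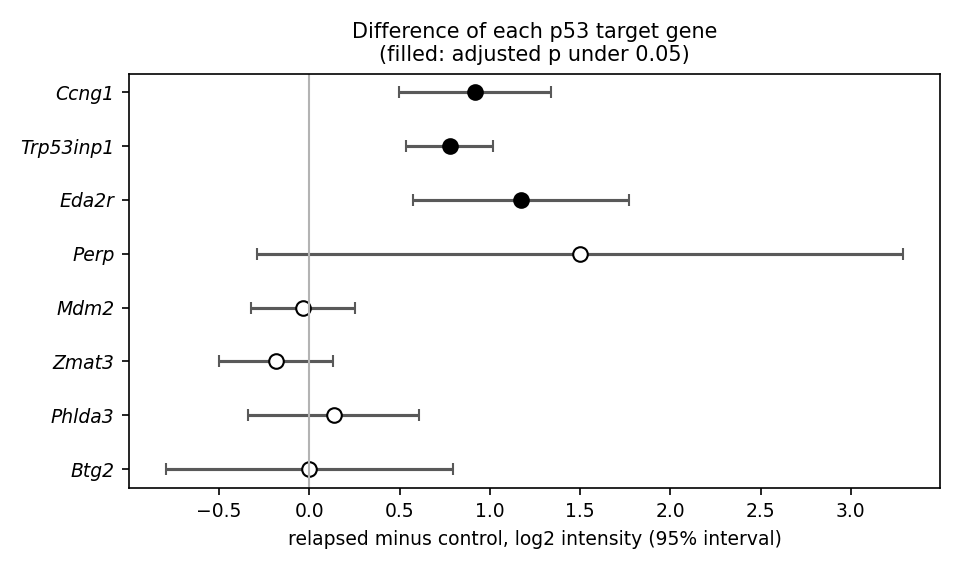
Difference of each of the 8 p53 target genes, relapsed minus control on the log2 scale, with its 95% interval from limma; filled points have an adjusted p under 0.05. Ccng1, Trp53inp1 and Eda2r lie above 0 with their whole intervals, Mdm2 has the second narrowest interval, and Perp the widest, from -0.29 to 3.29.

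The tumours that stood apart for Perp and Btg2 also stood apart in markers of other tissues. Scores are the mean log2 intensity of a marker list after each gene was centred on its mean over 6 tumours. The 8 keratinocyte markers scored 1.65 in relapsed 3 and -0.46 to -0.32 in the other relapsed tumours, against a range of -0.31 to -0.26 for controls. Krt14, a keratin of basal epidermis, was at 8.58 in relapsed 3, against 5.84 to 6.09 in controls. The summed signal of the keratinocyte list was 317 to 1508 in relapsed and 360 to 377 in control tumours, 3 of its 8 markers had a mean below the median of unlisted probe sets, and none was called. Eda2r was highest in this tumour as well.

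In relapsed 1 the 8 adipocyte markers scored 2.55, whereas relapsed 2 and 3 scored -0.63 and -0.31 and the controls lay between -0.75 and -0.31. Their summed signal was 860 to 8433 in relapsed and 698 to 980 in control tumours, none was called, and 1 had a mean below the median of unlisted probe sets. Adipoq, an adipokine gene, was at 9.81 in relapsed 1, the tumour with the highest Btg2. Control 2, lowest of all 6 tumours for Ccng1, Eda2r, Perp, Phlda3 and Zmat3, had a skeletal muscle score of 1.89, against -0.68 and -0.48 in the other controls and -0.58 to 0.06 in relapsed tumours. The summed signal of those 9 markers was 1659 to 2491 in relapsed and 1477 to 10166 in control tumours, and none was called. The part of these tissues in the values was not tested.

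**Figure D4:**
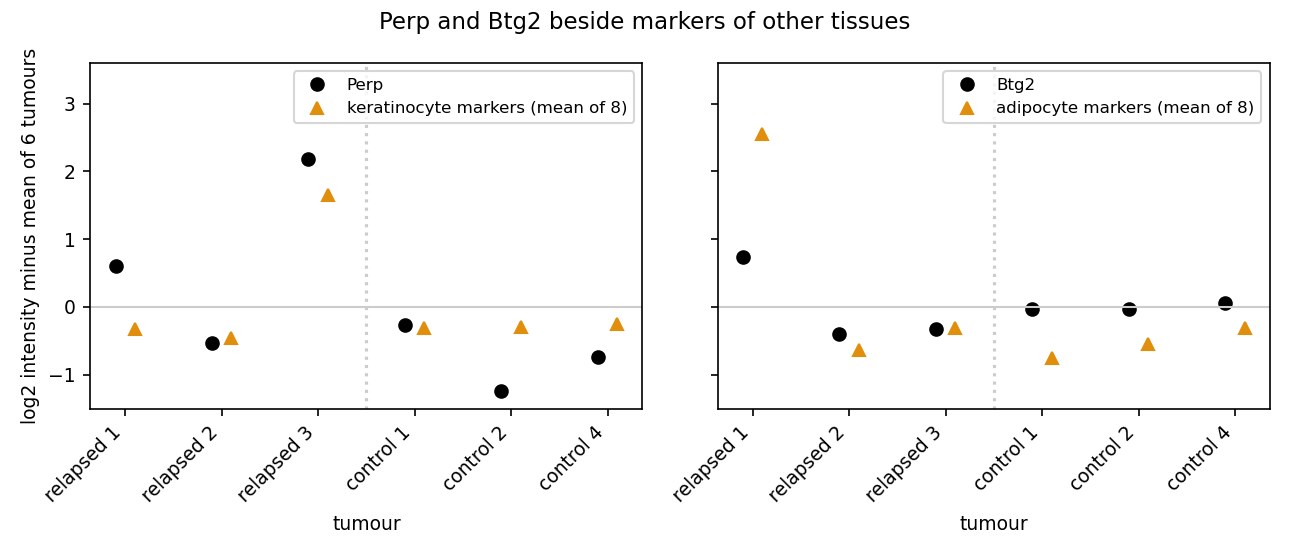
Perp beside the score of 8 keratinocyte markers (left) and Btg2 beside the score of 8 adipocyte markers (right), each as log2 intensity minus its mean over 6 tumours, with relapsed tumours left of the dotted line. Perp and the keratinocyte score are both highest in relapsed 3, and Btg2 and the adipocyte score are both highest in relapsed 1. In relapsed 1 Perp also lies above all controls, with a keratinocyte score of -0.32 against -0.31 to -0.26 in controls. Btg2 lies below all controls in relapsed 2 and 3, with adipocyte scores of -0.63 and -0.31 against -0.75 to -0.31.

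Among p53 targets beyond these 10, more fell than rose. Of 40 other measured p53 targets, chosen by role, 1 rose and 9 fell, which is 2.5% and 22.5% of them, against 3.69% and 5.47% of all genes. Their median difference was -0.28, against -0.02 over all genes. Over all 75 other pathway genes, 1 rose and 12 fell with all tumours, or 1.33% and 16%. Under median centring of the arrays, 0 were called higher and 19 (25.3%) lower by limma. With that centring, 42 of the 75 had an unadjusted p under 0.05, against 6170 of all 19938 genes. The same centring turned the split of all genes to 696 higher and 1687 lower, against 735 and 1091 as deposited, so that 8.46% of all genes were then called lower. Leaving out relapsed 1, 2 or 3 gave 7, 1 and 1 calls, and leaving out control 1, 2 or 4 gave 2, 7 and 1. In that order, 9.33%, 1.33%, 1.33%, 2.67%, 8% and 1.33% of the 75 were called lower. Over all genes the shares called lower were 2.98%, 1.24%, 0.858%, 1.38%, 1.98% and 0.722%. Without relapsed 2 the share of the 75 was thus close to that of all genes. Among the called genes named here by rule, Cpt1c alone kept its call in all 6 of those fits. The cell type markers given above also differed between the groups, and their part in the falls was not tested. Fewer cells of a type and less RNA per cell cannot be told apart here.

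**Figure D5:**
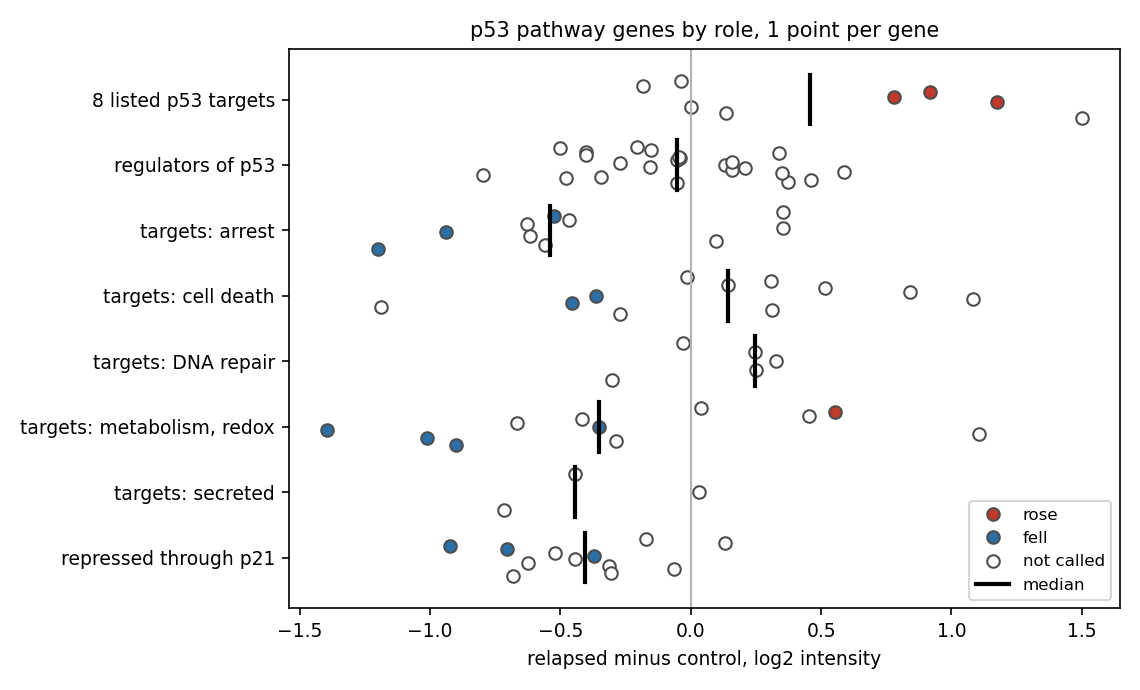
Difference of every measured p53 pathway gene, relapsed minus control on the log2 scale, by role, with colour for genes with a limma adjusted p under 0.05 and a black bar for each median. The median lies at 0.46 for the 8 listed targets, -0.54 for other targets of arrest and -0.35 for those of metabolism and redox.

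Among 10 other targets that act in arrest or are periodic in the cell cycle, 3 fell and none rose. Thus 30% were called lower, against 5.47% of all genes. Gtse1, whose protein binds p53 and moves it out of the nucleus, was at 8.20, 7.55 and 7.70 in relapsed tumours, against 8.88, 9.38 and 8.78 in controls. It fell by 1.20 ± 0.23 (SE, limma adjusted p of 0.0397). Plk3, a stress-activated polo-like kinase, fell by 0.94 ± 0.18, and Ptpn14, a phosphatase that restrains the transcriptional coactivator YAP, fell by 0.52 ± 0.07. For all 3 genes every relapsed tumour lay below every control, as it did for 7 of the 10, against 17.8% of all genes. With 1 tumour left out, Gtse1 was called in 1 of 6 fits (without relapsed 1), Plk3 in 0 and Ptpn14 in 2 (without relapsed 1 or control 2).

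Among 11 targets that act in cell death, 2 fell and none rose, so that 18.2% were called lower, against 5.47% of all genes. Aen, an apoptosis-enhancing nuclease, fell by 0.36 ± 0.07 and Pidd1, a death-domain protein, by 0.46 ± 0.10 (SE), with limma adjusted p of 0.0408 and 0.0483. Neither call was kept with any tumour left out. The median of the 11 genes was 0.14, and 6 had a higher mean in relapsed tumours. Among those 6 was Apaf1, named here after its values were seen. It differed by 0.52 ± 0.12 (SE, limma adjusted p of 0.0577), with every relapsed tumour above every control.

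Among 11 targets of metabolism and redox control, 1 rose and 4 fell, or 9.09% and 36.4%, against 3.69% and 5.47% of all genes. Sesn2, an inhibitor of mTORC1 signalling that the integrated stress response also induces, was at 7.71, 7.68 and 7.37 in relapsed tumours, against 8.64, 9.01 and 9.30 in controls. It fell by 1.39 ± 0.19 (SE, limma adjusted p of 0.0190). Ddit4, another mTORC1 inhibitor, which hypoxia also induces, fell by 1.01 ± 0.20. Cpt1c, a brain form of carnitine palmitoyltransferase, fell by 0.90 ± 0.08 (limma adjusted p of 0.0103). Rps27l, a relative of the ribosomal protein gene Rps27, rose by 0.55 ± 0.12 (limma adjusted p of 0.0492), a call lost in limma with median centring, with all probe sets and with a trended robust prior (adjusted p = 0.0694, 0.0674 and 0.0558). Whether its probes also read Rps27 was not tested. Tigar, which lowers glycolytic flux and is named here after its values were seen, fell by 0.35 ± 0.06. With 1 tumour left out, Sesn2 was called in 2 of 6 fits (without relapsed 1 or control 1), Rps27l in 1 (without control 2) and Ddit4 in 0.

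None of 5 targets of DNA repair and 3 secreted targets was called in limma, although 1 and 2 of them had an unadjusted p under 0.05, or 20% and 66.7%, against 26.6% of all genes. The smallest p-values belonged to Polk, a translesion polymerase, at 0.33 ± 0.13, and Ddb2, a sensor of ultraviolet damage, at 0.25 ± 0.11 (SE, limma adjusted p of 0.186 and 0.208). Polk was at 0.21 without relapsed 3, and Ddb2 at 0.16 without control 1. For the secreted proteins they belonged to Igfbp3, which binds insulin-like growth factors, at -0.44 ± 0.10, and Lif, a cytokine, at -0.72 ± 0.28, with limma adjusted p of 0.0502 and 0.181. Igfbp3 was called lower by limma with the dimmer 50% of genes left out, with median centring and with the mean of probe sets (adjusted p = 0.0443, 0.0294 and 0.0498).

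Regulators of p53 gave no call in limma among 23 measured genes, while 6 had an unadjusted p under 0.05, or 26.1%, against 26.6% of all genes. Trp53, the gene of p53 itself, was listed but is not among the 23, as no probe set was annotated to it alone. Mdm4, the inhibitory relative of Mdm2, was at 8.53, 8.92 and 8.70 in relapsed 1, 2 and 3, against 8.37, 8.12 and 8.53 in control 1, 2 and 4, a difference of 0.37 ± 0.15 (SE, limma adjusted p of 0.180). Relapsed 1 and control 4 had the same Mdm4 level, at 8.52884. Such exact ties are not particular to Mdm4, as Chek1 was at 8.59624 in control 1, 2 and 4. Cdkn2a, which encodes the cell cycle inhibitor p16 and the Mdm2 inhibitor p19Arf, was at 7.84, 9.17 and 9.36 in relapsed 1, 2 and 3, against 9.62, 9.51 and 9.64 in control 1, 2 and 4. The groups did not overlap, but relapsed 1 lay far below the rest. The difference was -0.80, with a limma adjusted p of 0.293, and -0.32 without relapsed 1. Ppm1d, a phosphatase that ends p53 signalling and is itself a p53 target, differed by -0.48 ± 0.11 (limma adjusted p of 0.0561). It was called lower by limma with the dimmer 50% of genes left out and with median centring (adjusted p = 0.0433 and 0.0318). Daxx, a histone chaperone that binds Mdm2, differed by -0.40 ± 0.12 (limma adjusted p of 0.0987).

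Genes that p53 represses through p21 were also read, since they lie at the far end of the arrest pathway. Among 12 of them 3 fell and none rose, so that 25% were called lower, against 5.47% of all genes. A lower mean in relapsed tumours was found for 11 of the 12, against 54.8% of all genes, and the median difference was -0.41, against -0.02 over all genes. Plk1, a kinase of mitotic entry, fell by 0.92 ± 0.16, Aurka, a spindle kinase, by 0.71 ± 0.09, and Foxm1, a transcription factor of mitotic genes, by 0.37 ± 0.07 (SE). Their limma adjusted p were 0.0324, 0.0184 and 0.0426. With 1 tumour left out, Aurka was called in 2 of 6 fits (without relapsed 1 or control 2), Plk1 in 1 (without relapsed 1) and Foxm1 in 0, and the directions did not change. Whether p53 or p21 had a part in these falls was not tested, and neither Trp53 nor Cdkn1a has a value here.

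The genes whose pattern over the 6 tumours lay closest to a called gene were found by the mean absolute difference of centred log2 values. Closest to Ccng1 were Zfp322a, Hprt and Tctex1d2, at 0.037, 0.042 and 0.051. Hipk3, Ctso and Scube3 came closest to Trp53inp1, at 0.046, 0.055 and 0.055. For Eda2r they were Tafa1, Gm8773 and Dhrs9, at 0.089, 0.093 and 0.106. None of these genes is in the p53 lists used here. Those lists hold only 8 and 75 of the 19938 genes, so this absence tells little about the p53 pathway.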

How the data were processed

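The table that the authors deposited gives each probe set a log2 intensity on each array. The array medians were close but followed the groups, at 6.67 to 6.68 in relapsed and 6.58 to 6.62 in control tumours. The affy package is named in the submitters' processing notes. How background was corrected and arrays were normalized is not given in the sources used here. Values were used as deposited.

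Probe sets with 1 symbol in the platform annotation (21789 of 35556) were used, taking the one with the highest mean per gene. The fit was limma 3.58.1 in R 4.3.3 (lmFit, eBayes), relapsed minus control, two-sided, with 4 residual degrees of freedom, tested on simulated data. Errors of differences are SE and those of levels SD. The number of arrays limits the precision, and p-values measure the spread between these tumours, which the labels do not tie to separate animals. The genes and lists were chosen with earlier results of these data known. Of 81 other pathway genes listed, 75 were measured. Named were the measured targets, Mdm4 and Cdkn2a, up to 4 called genes per list, or the 2 with the smallest p where none was called, and the 3 closest patterns to each called target. Keratinocyte markers were scored without Trp63 and Sfn, which belong to the p53 lists. Alternatives were a filter on dim genes, quantile normalization, median centring, the mean of probe sets, all probe sets, a replicate block, another variance prior and leaving out each tumour.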

Additional observations from a re-analysis of the deposited data

How the results depend on the processing

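The signs of Ccng1, Trp53inp1, Eda2r, Perp and Zmat3 held under every alternative that gave a value. Eda2r gave none with the dimmer 50% of genes left out, because it was among them. Near-zero differences changed sign: Btg2 was -0.0085 with quantile normalization, -0.074 with median centring and -0.37 to 0.20 with 1 tumour left out, Mdm2 was -0.11 to 0.075 and Phlda3 -0.055 to 0.29. Sign changes made up 7 of 103 values for the 8 targets and 0 of 258 for the 20 other named pathway genes. With 1 tumour left out, limma called 0 to 1 of the 8 targets, 1 to 7 of the 75 other pathway genes and 264 to 975 of all genes, against 3, 13 and 1826 with all tumours. The 75 genes gave 6 calls with all probe sets tested and 8 with a trended robust prior, but 14 with the mean of probe sets, 16 with quantile normalization, 18 with the dimmer 50% of genes left out and 19 with median centring. With the replicate number as a block, limma called 0 of the 8 targets, 0 of the 75 genes and 0 of all genes, with 4, 11 and 2199 at an unadjusted p under 0.05. That fit has 1 residual degree of freedom, and relapsed 3 and control 4 add nothing to it. The labels do not state whether shared numbers pair the tumours. Deviations from group means correlated over genes at -0.34 for number 1 and -0.25 for number 2. They correlated at 0.35 for relapsed 1 with control 2 and at 0.22 for relapsed 2 with control 1. With means of 3 tumours taken out in each group, these values cannot decide whether the numbers pair tumours.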

Other observations

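Named after their values were seen, 3 other p53 targets had differences above 1 log2 unit without a call. Sesn1, a relative of Sesn2 that also restrains mTORC1, was at 10.53, 9.32 and 9.74 in relapsed 1, 2 and 3, against 8.48, 8.87 and 8.92 in control 1, 2 and 4, so that every relapsed tumour was higher (difference 1.11 ± 0.33 SE, limma adjusted p of 0.0997). Its difference thus had the opposite sign to that of Sesn2, at -1.39 ± 0.19. Fas, the death receptor, was at 7.44, 7.48 and 6.71 in relapsed tumours, against 5.84, 6.10 and 6.44 in controls, again without overlap (difference 1.08 ± 0.26 SE, limma adjusted p of 0.0640). Tnfrsf10b, the receptor of the death ligand TRAIL, was at 6.24, 8.21 and 8.14 in relapsed 1, 2 and 3, against 8.83, 8.40 and 8.92 in control 1, 2 and 4 (difference -1.19 ± 0.57 SE, limma adjusted p of 0.258). Relapsed 1 was the lowest tumour for Tnfrsf10b, Cdkn2a and Mdm2 and the highest for Btg2 and Sesn1.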
